A study of Mus musculus with 24 samples.

Results

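Toll-like receptors are membrane proteins of innate immune cells that recognise microbial products and material released from damaged cells. The genes described here are 7 of these receptors, Tlr1, Tlr2, Tlr3, Tlr4, Tlr7, Tlr9 and Tlr13, together with Cd14 and Ly86, which help receptors at the cell surface, and Myd88, the shared adaptor. Their rows were found in the deposited table by mapping each gene identifier to its mouse symbol, which gave 10 of 22274 genes. Tlr1, Tlr2 and Tlr4 sit at the cell surface and bind lipopeptides or lipopolysaccharide, whereas Tlr3, Tlr7, Tlr9 and Tlr13 sit in endosomes and bind nucleic acids. Ligand binding recruits Myd88 for every receptor of the list but Tlr3, which uses the adaptor Ticam1, and the signal ends in NF-κB and interferon regulatory factors. In brain tissue these receptors are known chiefly from microglia, the resident macrophages, and Tlr3 also from astrocytes.

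The study lesioned the pituitary stalk of male C57BL/6J mice by a cathodic current through a knife placed stereotaxically (PEL), and compared them with Sham-operated mice. mRNA of the hypothalamus was sequenced from Sham, PEL at day 3 (PEL_3d) and PEL at day 10 (PEL_10d) animals, and from these same groups given growth hormone (Sham_GH, PEL_3d_GH and PEL_10d_GH). mRNA of the hippocampus was sequenced from Sham and PEL_10d animals, so that there were 8 groups of 3 libraries. The dose of growth hormone, the age of the animals and whether a library holds 1 animal are not given in the sources used here, so p-values measure the spread between these libraries only. No group carries a transgene, and the Sham groups are dated to day 0 by their labels.

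Total counts ran from 15095267 to 17973494 per library. A pair of libraries went against their labels. The library labelled hypothalamus Sham 1 had a summed FPKM (fragments scaled by gene length and library size) of 7.21 over 8 hypothalamus markers, with 2 of them at 0, where the other 17 hypothalamic libraries had at least 764, and of 233 over 8 hippocampus markers. The library labelled hippocampus Sham 1 had 1028 and 42.5, where the other hippocampal libraries had at most 3.40 and at least 237. Neither was regrouped. The hypothalamic comparisons below leave the library labelled Sham 1 out, as the study left out 1 Sham library, and so set 3 libraries against 2. The hippocampal comparison holds all 6 libraries, and both are given the other way where that matters.

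Across the hypothalamus, all 10 genes were higher at day 3 than in Sham, by 1.47-fold for Tlr3 to 17.4-fold for Tlr1, and all 10 were still higher at day 10, by 1.48-fold for Tlr3 to 6.14-fold for Tlr1. By the quasi-likelihood test of edgeR, with p-values adjusted by Benjamini-Hochberg over all tested genes, 10 of 10 passed at day 3, where 22.2% of 14905 tested genes passed as higher, and 10 of 10 passed at day 10, where 7.97% of 14801 did. Tlr1 entered these tests only through its PEL libraries, since its Sham counts were 6 and 10, so its pass could not have been a fall and the count without it is 9 of 9. Without it the median log2 fold change was 2.71 at day 3 and 1.62 at day 10, beside -0.01 over all tested genes at either time. Both comparisons use the same Sham libraries.

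**Figure D1:**
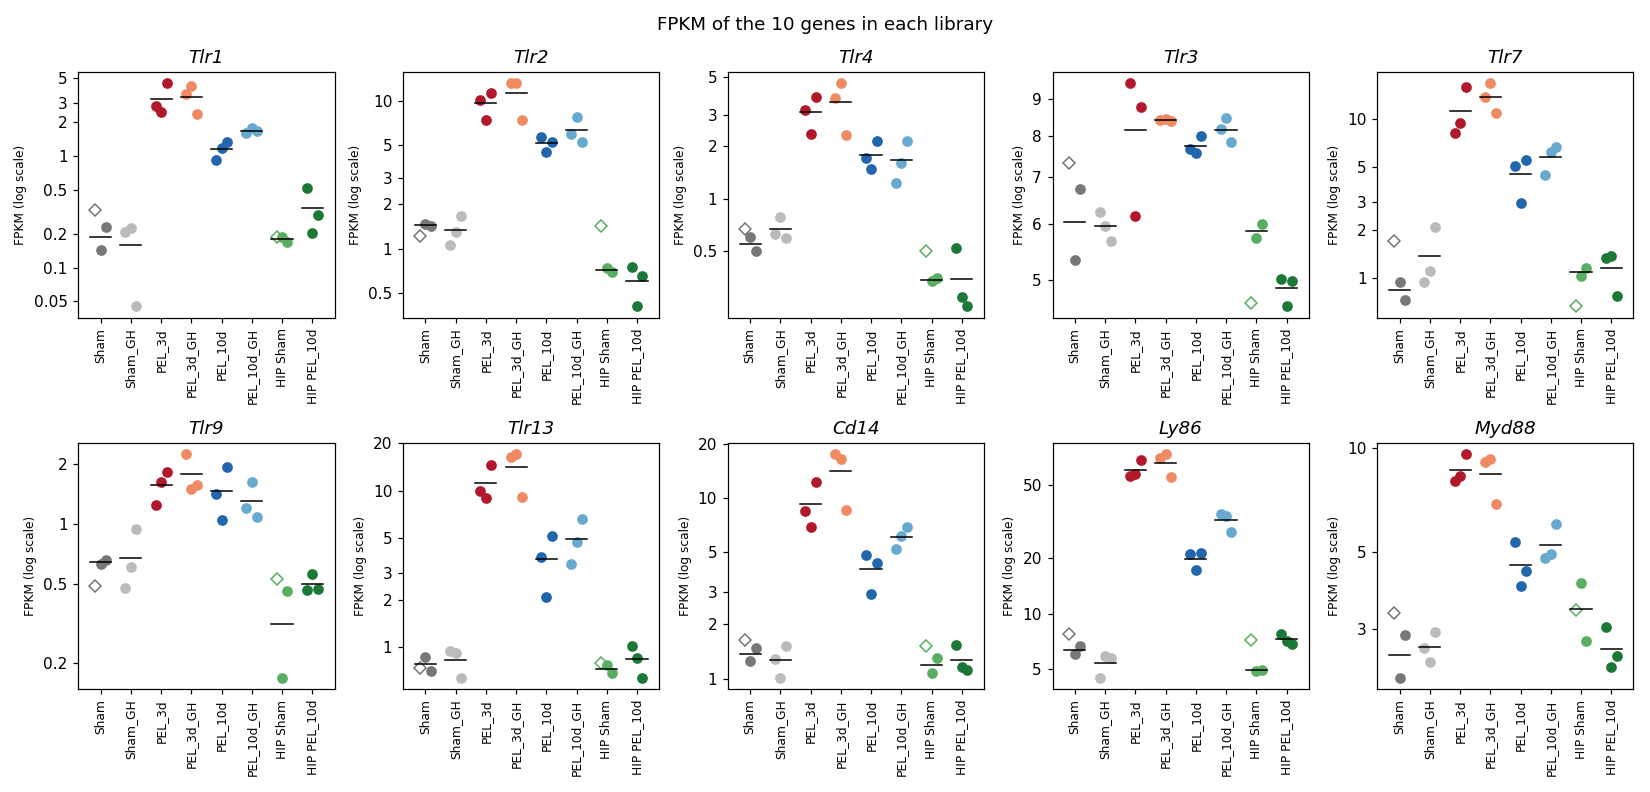
FPKM of each gene (log axis, 1 panel per gene) in every library of the 6 hypothalamic groups and the 2 hippocampal groups (HIP). Points are libraries, open diamonds are the Sham 1 library of each tissue, and lines are means without it. The PEL_3d libraries lie above the Sham libraries in all panels except Tlr3, where 1 of them at 6.16 FPKM falls between the Sham values. The hippocampal libraries lie below the PEL_3d libraries in all panels. For Tlr2 they also lie below hypothalamic Sham, at 0.406 to 0.750 FPKM apart from the open diamond.

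Positions are those of GRCm38, and all 10 genes code for protein. Tlr1 lies on the minus strand of chromosome 5 from 64924679 to 64933563, Tlr2 on the minus strand of chromosome 3 from 83836272 to 83841767, and Tlr4 on the plus strand of chromosome 4 from 66827584 to 66930284. Tlr3 lies on the minus strand of chromosome 8 from 45395665 to 45411080, and Tlr9 on the plus strand of chromosome 9 from 106222598 to 106226883. Myd88 is on the minus strand of that same chromosome from 119335934 to 119341411. Tlr7 and Tlr13 are both on chromosome X, from 167304929 to 167330558 on the minus strand and from 106143204 to 106160493 on the plus strand. Ly86 lies on the plus strand of chromosome 13 from 37345208 to 37419036.

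Since the 10 genes rose together, their promoter windows were searched on both strands for 3 sequences bound by factors of the pathway or of myeloid cells, GAGGAAGT for PU.1, GGANTTTCC for NF-κB and TGANTCA for AP-1. RefSeq windows of 300 bases on GRCm38.p6, from 250 bases before to 50 after a start, were found for 7 of the 10 genes, with 2 for Tlr1, and not for Tlr4, Tlr7 and Cd14. Of all 32851 windows, 3.20% held the first, 1.25% the second and 7.81% the third. The 4 windows with a match are printed 5′ to 3′ on the gene's strand with the matches in capitals, since they show which of the genes that rose most, Tlr1, and least, Tlr3, carry which letters. Their places are chr5:64933509-64933808 for Tlr1, chr8:45410331-45410630 for Tlr3, chr9:106222348-106222647 for Tlr9 and chr9:119339969-119340268 for Myd88.
Tlr1: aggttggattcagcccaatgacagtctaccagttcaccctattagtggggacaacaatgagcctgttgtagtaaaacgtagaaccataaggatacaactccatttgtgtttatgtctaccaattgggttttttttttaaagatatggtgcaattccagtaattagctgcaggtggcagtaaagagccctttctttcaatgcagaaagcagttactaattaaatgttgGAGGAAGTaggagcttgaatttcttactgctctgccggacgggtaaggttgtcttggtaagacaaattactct
Tlr3: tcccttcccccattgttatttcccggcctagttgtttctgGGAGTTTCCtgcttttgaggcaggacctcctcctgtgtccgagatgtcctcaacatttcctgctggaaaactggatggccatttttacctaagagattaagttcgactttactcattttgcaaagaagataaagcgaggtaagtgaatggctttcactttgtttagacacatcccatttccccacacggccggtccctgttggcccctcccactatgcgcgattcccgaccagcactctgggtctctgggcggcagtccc
Tlr9: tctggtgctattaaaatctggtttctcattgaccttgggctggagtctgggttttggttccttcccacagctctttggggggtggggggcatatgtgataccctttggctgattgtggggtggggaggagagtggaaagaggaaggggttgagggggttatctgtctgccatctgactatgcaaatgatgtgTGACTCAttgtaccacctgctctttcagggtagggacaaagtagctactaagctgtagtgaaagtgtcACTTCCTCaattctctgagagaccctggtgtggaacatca
Myd88: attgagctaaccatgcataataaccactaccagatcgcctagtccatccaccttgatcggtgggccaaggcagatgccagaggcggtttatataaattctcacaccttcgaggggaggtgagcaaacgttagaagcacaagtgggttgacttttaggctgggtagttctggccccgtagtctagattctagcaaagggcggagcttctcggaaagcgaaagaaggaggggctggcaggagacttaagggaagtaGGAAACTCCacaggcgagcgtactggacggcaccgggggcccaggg

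PU.1 letters were found in Tlr1, from base 228 of the window, and in Tlr9, from base 261 on the other strand, where Tlr9 also held the AP-1 letters from base 193. NF-κB letters were found in Tlr3, from base 41, and in Myd88, from base 255 on the other strand. The windows of Tlr2, Tlr13 and Ly86 and the second window of Tlr1 held none of the 3. Other spellings of these sites were not searched, so this does not show that the windows lack them. At day 3 Tlr13 rose 13.9-fold and Tlr3, with a match, 1.47-fold. A match is a description of letters in a window.

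Among the surface receptors, Tlr1 and Tlr2 form a pair that binds bacterial lipopeptides. Tlr1 was at 0.143 and 0.230 FPKM in Sham 2 and Sham 3, at 2.82, 2.48 and 4.51 FPKM in PEL_3d, and at 0.917, 1.18 and 1.34 FPKM in PEL_10d. Every PEL library was above both Sham libraries and the day 3 and day 10 libraries did not overlap. The log2 fold change was 4.12 at day 3 (SE 0.39, adjusted p = 2.07e-05, edgeR) and 2.62 at day 10 (SE 0.39, adjusted p = 0.00475, edgeR). Its level is uncertain, because 15.4% of the 3332 different stretches of 50 bases in its transcripts also occur in those of other genes, 454 of them in the neighbouring paralog Tlr6, and its deposited count was not whole in 9 of 24 libraries.

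Tlr2 was at 1.47 and 1.43 FPKM in Sham, at 10.2, 7.46 and 11.3 FPKM in PEL_3d, and at 5.69, 4.48 and 5.28 FPKM in PEL_10d. The groups stood in the same order without overlap. Its log2 fold change was 2.71 at day 3 (SE 0.20, adjusted p = 2.67e-06, edgeR) and 1.81 at day 10 (SE 0.16, adjusted p = 0.000667, edgeR). Tlr4 is the lipopolysaccharide receptor. It was at 0.601 and 0.503 FPKM in Sham, at 3.22, 2.35 and 3.83 FPKM in PEL_3d, and at 1.71, 1.49 and 2.13 FPKM in PEL_10d. The lowest day 3 library was above the highest day 10 library, which was above Sham. The log2 fold change of Tlr4 was 2.48 at day 3 (SE 0.25, adjusted p = 3.39e-05, edgeR) and 1.65 at day 10 (SE 0.24, adjusted p = 0.00451, edgeR).

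Among the endosomal receptors, Tlr13 and Tlr7 had the largest fold changes. Tlr13, which in mice recognises bacterial ribosomal RNA, was at 0.865 and 0.711 FPKM in Sham, at 9.93, 8.90 and 14.6 FPKM in PEL_3d, and at 3.76, 2.10 and 5.12 FPKM in PEL_10d. Tlr7, which recognises single-stranded RNA, was at 0.952 and 0.730 FPKM in Sham, at 8.12, 9.33 and 15.8 FPKM in PEL_3d, and at 5.07, 2.97 and 5.53 FPKM in PEL_10d. For both genes PEL_3d 3 was the highest library and PEL_10d 2 the lowest of the PEL libraries, and no group overlapped another. FPKM per count, corrected for depth, differed up to 2.31-fold between libraries for Tlr7, with Sham_GH 3 at 55 counts and 2.08 FPKM and Sham_GH 1 at 53 counts and 0.950 FPKM, but with counts scaled to library size Sham, PEL_3d and PEL_10d did not overlap either. The log2 fold change of Tlr13 was 3.80 at day 3 (SE 0.25, adjusted p = 1.47e-06, edgeR) and 2.19 at day 10 (SE 0.37, adjusted p = 0.00792, edgeR). That of Tlr7 was 3.56 at day 3 (SE 0.22, adjusted p = 1.10e-06, edgeR) and 2.41 at day 10 (SE 0.30, adjusted p = 0.00229, edgeR).

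Tlr9 recognises unmethylated CpG DNA. It was at 0.629 and 0.664 FPKM in Sham, at 1.25, 1.63 and 1.82 FPKM in PEL_3d, and at 1.42, 1.05 and 1.94 FPKM in PEL_10d. All PEL libraries exceeded Sham, but day 3 and day 10 overlapped, and PEL_10d 3 was the highest library of the 3 groups. Its log2 fold change was 1.26 at day 3 (SE 0.26, adjusted p = 0.00315, edgeR) and 1.16 at day 10 (SE 0.30, adjusted p = 0.0475, edgeR).

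Tlr3, the receptor for double-stranded RNA, started from the highest level of the 7 receptors and moved least. It was at 5.34 and 6.73 FPKM in Sham, at 9.49, 6.16 and 8.79 FPKM in PEL_3d, and at 7.66, 7.56 and 7.98 FPKM in PEL_10d. For one and the same count and depth, the deposited FPKM of Tlr3 differed up to 1.47-fold between the 17 hypothalamic libraries used. In FPKM, PEL_3d 2 lay within the Sham values, whereas in counts it did not, with 362 against 261 and 268. The log2 fold change from counts was 0.55 at day 3 (SE 0.11, adjusted p = 0.00291, edgeR) and 0.57 at day 10 (SE 0.10, adjusted p = 0.00871, edgeR). At day 3 this call was lost on the scale log2(FPKM + 0.1), where limma gave 0.41 (adjusted p = 0.145). With the library labelled Sham 1 it was lost at both days, at log2 fold changes of 0.30 and 0.30 (adjusted p = 0.460 and 0.694, edgeR). A total of 698 bases of Tlr3 lie opposite an antisense gene, Gm45542, and whether counting used strand is not given in the sources used here.

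Of the co-receptors and the adaptor, Ly86, the secreted partner of the receptor Cd180, was the most abundant of the 10 genes in the PEL groups. It was at 6.08 and 6.67 FPKM in Sham, at 56.3, 57.5 and 68.1 FPKM in PEL_3d, and at 21.1, 17.2 and 21.3 FPKM in PEL_10d. Every day 3 library exceeded every day 10 library, and these exceeded Sham. The log2 fold change was 3.23 at day 3 (SE 0.13, adjusted p = 7.41e-08, edgeR) and 1.62 at day 10 (SE 0.14, adjusted p = 0.000571, edgeR). Cd14, which hands lipopolysaccharide to Tlr4, was at 1.25 and 1.49 FPKM in Sham, at 8.48, 6.95 and 12.3 FPKM in PEL_3d, and at 4.86, 2.93 and 4.35 FPKM in PEL_10d. Its groups did not overlap, with PEL_3d 3 the highest and PEL_10d 2 the lowest of the PEL libraries. Its log2 fold change was 2.73 at day 3 (SE 0.28, adjusted p = 3.22e-05, edgeR) and 1.54 at day 10 (SE 0.28, adjusted p = 0.0108, edgeR).

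Myd88 was at 2.16 and 2.88 FPKM in Sham, at 8.04, 8.32 and 9.62 FPKM in PEL_3d, and at 5.36, 3.98 and 4.41 FPKM in PEL_10d. Its groups did not overlap, with day 3 highest and Sham lowest. The log2 fold change was 1.76 at day 3 (SE 0.17, adjusted p = 2.41e-05, edgeR) and 0.84 at day 10 (SE 0.21, adjusted p = 0.0367, edgeR). Its annotated span is shared over 5478 bases with Slc22a14 on the same strand and over 1736 bases with Acaa1a on the other, so reads from these genes may be mixed where exons meet.

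The day 10 count rested on few Sham libraries. Without Sham 2, 3 of 10 genes passed at day 10 (Tlr2, Tlr7 and Ly86), and without Sham 3, 4 passed, those and Tlr1. With the library labelled Sham 1 put back, 9 of 10 passed at day 3, where 10.4% of 14726 tested genes passed as higher, and 6 of 10 at day 10, where 1.81% of 14610 did. Those that did not pass at day 10 were Tlr3, Tlr9, Cd14 and Myd88. The log2 fold changes of these 4 were then 0.30, 1.27, 1.43 and 0.67, all positive.

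From day 3 to day 10, 8 of 10 genes fell, where 12.2% of 14807 tested genes passed as lower. The falls were 3.05-fold for Ly86 and 3.04-fold for Tlr13, with log2 changes of -1.61 (SE 0.11, adjusted p = 2.27e-05, edgeR) and -1.60 (SE 0.29, adjusted p = 0.00499, edgeR), and 1.77-fold for Tlr4, at -0.82 (SE 0.20, adjusted p = 0.0229, edgeR). Tlr1, Tlr7, Cd14, Myd88 and Tlr2 lay between, at log2 changes from -1.49 to -0.90. Tlr3 and Tlr9 did not pass, at 0.02 (SE 0.09, adjusted p = 0.893, edgeR) and -0.09 (SE 0.25, adjusted p = 0.833, edgeR). The call on Tlr4 was lost without PEL_3d 1, PEL_3d 3, PEL_10d 1 or PEL_10d 2.

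**Figure D2:**
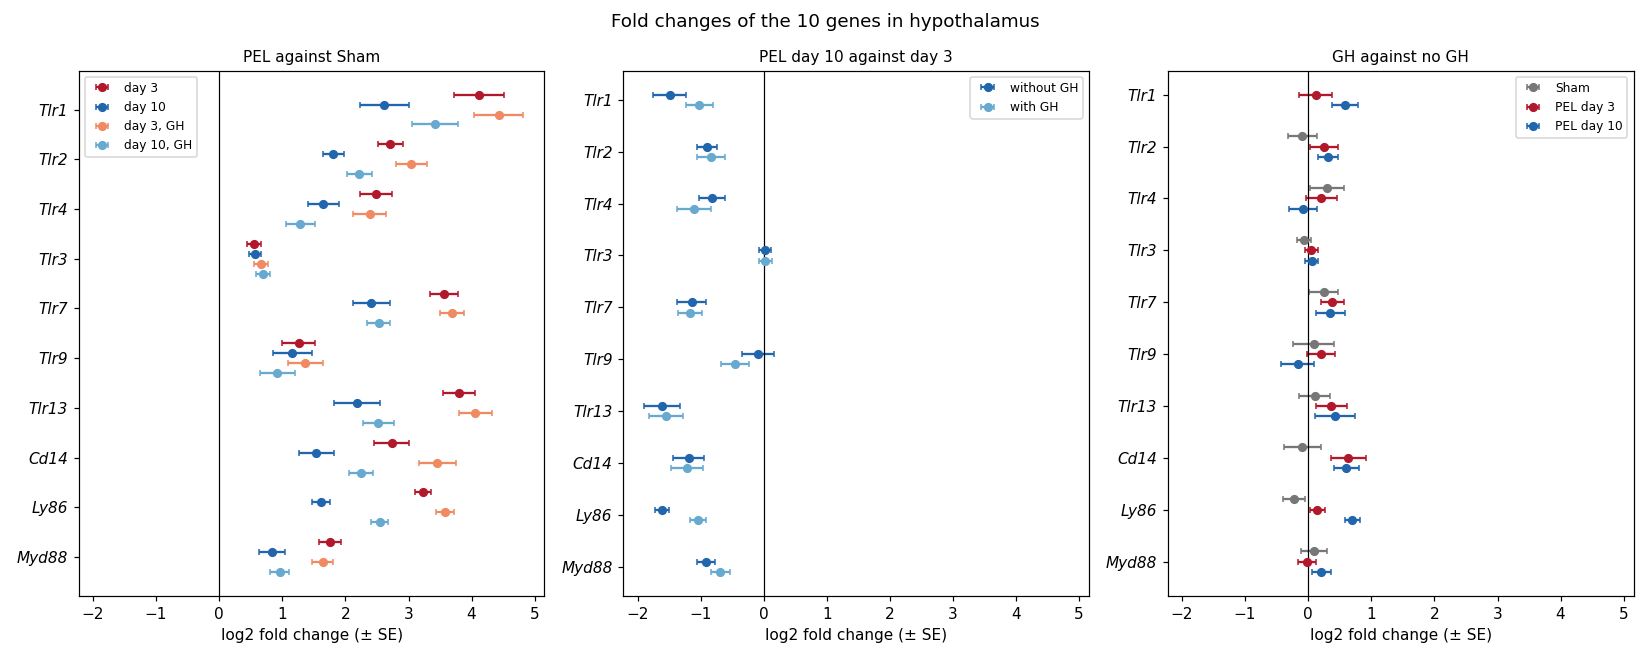
log2 fold change with its standard error for each gene in hypothalamus, for PEL against Sham (left), day 10 against day 3 (middle) and growth hormone against none (right). In the left panel all points lie right of 0, in the middle panel Tlr3 and Tlr9 alone reach 0 without growth hormone, and in the right panel the points lie between -0.22 and 0.70. Tlr1 was not tested between the Sham groups.

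Under growth hormone Tlr3 again had the smallest fold change. Tlr1 entered these tests only through its PEL libraries too, with 2 to 11 counts in Sham_GH, and is left out of the counts. At day 3, PEL_3d_GH was above Sham_GH for 9 of 9 genes (26.9% of 14743 tested genes passed as higher), from a log2 fold change of 0.66 for Tlr3 (SE 0.10, adjusted p = 0.000469, edgeR) to 4.06 for Tlr13 (SE 0.26, adjusted p = 1.79e-06, edgeR). At day 10, PEL_10d_GH was above Sham_GH for 9 of 9 (17.7% of 14686 passed as higher), from 0.70 for Tlr3 (SE 0.11, adjusted p = 0.00127, edgeR) to 2.54 for Ly86 (SE 0.13, adjusted p = 1.66e-06, edgeR). The median of the 9 genes was 3.04 and 2.22, beside -0.0016 and -0.0089 over all tested genes. Tlr1 stood at 4.43 (SE 0.39) and 3.42 (SE 0.36). Tlr9 was the weakest call at day 10 (log2 fold change 0.92, SE 0.28, adjusted p = 0.0298, edgeR) and was lost without PEL_10d_GH 2, Sham_GH 1 or Sham_GH 2.

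Between PEL_10d_GH and PEL_3d_GH, 8 of 10 genes fell (10.8% of 14838 passed as lower), again with Tlr3 at 0.03 (SE 0.11, adjusted p = 0.890, edgeR) and Tlr9 at -0.45 (SE 0.23, adjusted p = 0.199, edgeR) as the exceptions. Only 3 of them, Tlr7, Tlr13 and Ly86, still passed without PEL_3d_GH 1, without PEL_3d_GH 2, without PEL_10d_GH 1 or without PEL_10d_GH 2. For those 3 genes the log2 changes were -1.17, -1.54 and -1.05.

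The direct comparisons of growth hormone with none asked whether the hormone moved these genes. None of the 10 passed at day 3, where 0.027% of 14798 tested genes passed in either direction, and none at day 10, where 0% of 14763 did. Between the Sham groups 0 of 9 tested genes passed, where 1.09% of 14539 did, and Tlr1 was under the count filter. At an unadjusted p under 0.05 in edgeR's test, 1 gene of the list was counted at day 3 (Cd14), 3 at day 10 (Ly86, Cd14 and Tlr1) and 0 between the Sham groups. DESeq2 called 0, 1 and 0 genes.

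The gene DESeq2 called was Ly86 at day 10. Ly86 was at 34.7, 33.9 and 27.7 FPKM in PEL_10d_GH and at 21.1, 17.2 and 21.3 FPKM in PEL_10d, without overlap. Its log2 fold change was 0.70 (SE 0.12, adjusted p = 0.350, edgeR) by the main test and 0.70 (SE 0.14, adjusted p = 0.000687) by DESeq2. Cd14 was at 5.24, 6.16 and 6.95 FPKM against 4.86, 2.93 and 4.35 FPKM, with a log2 fold change of 0.61 (SE 0.20, adjusted p = 0.773, edgeR). Tlr1 was at 1.61, 1.79 and 1.66 FPKM against 0.917, 1.18 and 1.34 FPKM, with 0.59 (SE 0.20, adjusted p = 0.782, edgeR). The groups did not overlap for these genes either. The summed FPKM of 10 microglia markers was also higher with growth hormone at day 10, at 417 to 515 against 335 to 369. Markers of neutrophils and monocytes summed to 11.9 to 31.0 against 3.95 to 10.3 FPKM and anterior pituitary markers to 1.63 to 39.4 against 1.03 to 2.80 FPKM, with none of their tested genes past the test. The part of the 3 lists in these values was not tested.

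Tested as a difference of the lesion effects with and without growth hormone, none of the 10 genes passed at day 3, where 0.0462% of 15164 tested genes did, or at day 10, where 0% of 15116 did. At an unadjusted p under 0.05 the counts were 0 and 1. The single gene was Ly86 at day 10, with a difference of 0.92 on the log2 scale (SE 0.20, adjusted p = 0.164, edgeR), which DESeq2 called at 0.93 (SE 0.24, adjusted p = 0.0217).

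In hippocampus the same lesion left the list without a call. Over all 6 libraries 0 of 9 tested genes passed, where 0% of 14039 did, and 1 of 9 (Ly86) had an unadjusted p under 0.05. DESeq2 called 0. Ly86 was at 7.25, 4.89 and 4.98 FPKM in hippocampal Sham and at 7.80, 7.16 and 6.83 FPKM in hippocampal PEL_10d, with a log2 fold change of 0.41 (SE 0.15, adjusted p = 0.480, edgeR). The highest Sham value is the library labelled hippocampus Sham 1. Without it 0 of 10 genes passed, where 6.15% of 14191 tested genes did, and Ly86 stood at 0.53 (SE 0.15, adjusted p = 0.0750, edgeR). Tlr1, tested then, stood at 0.96 (SE 0.51, adjusted p = 0.289, edgeR).

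Between the lesioned tissues at day 10, all 10 genes were higher in hypothalamus than in hippocampus (30.9% of 14561 tested genes passed as higher), from 1.38-fold for Tlr3 to 7.24-fold for Tlr2. Tlr1 reached the count filter only through its hypothalamic libraries, and the count without it is 9 of 9. Tlr2 was at 0.750, 0.406 and 0.653 FPKM in hippocampal PEL_10d, below every hypothalamic PEL_10d library. This comparison mixes the lesion with the tissue, and Tlr2 was also lower in hippocampal than in hypothalamic Sham, at 0.736 and 0.690 FPKM in the hippocampal Sham 2 and Sham 3.

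The difference of the day 10 effect between the tissues sets each lesioned group against the Sham of its own tissue, with the library labelled hippocampus Sham 1, at 1.42 FPKM of Tlr2, among them. It passed for 2 of 10 genes, where 1.88% of 15093 tested genes passed in either direction. These were Tlr2, at 2.39 on the log2 scale (SE 0.40, adjusted p = 0.0281, edgeR), and Ly86, at 1.21 (SE 0.20, adjusted p = 0.0281, edgeR). The other 8 were all positive, from 0.67 for Tlr3 (SE 0.16, adjusted p = 0.0677, edgeR) to 2.38 for Tlr7 (SE 0.53, adjusted p = 0.0547, edgeR). The count depended on single libraries. It was 8 without the library labelled hippocampus Sham 1, 5 without hypothalamic PEL_10d 2, 4 without hippocampal PEL_10d 1, 1 without hippocampal Sham 3, and 0 without hypothalamic Sham 2, Sham 3, PEL_10d 1 or PEL_10d 3 or without hippocampal PEL_10d 2 or PEL_10d 3. With the hypothalamic library labelled Sham 1 it was 1 (Tlr2), and DESeq2 called 8. Microglia markers summed to 179 to 228 FPKM in hippocampal PEL_10d and 166 to 169 in hippocampal Sham 2 and Sham 3. Choroid plexus markers summed to 37.5 to 792 and to 4304 to 5394 FPKM in the same libraries. The part of either in these differences was not tested.

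**Figure D3:**
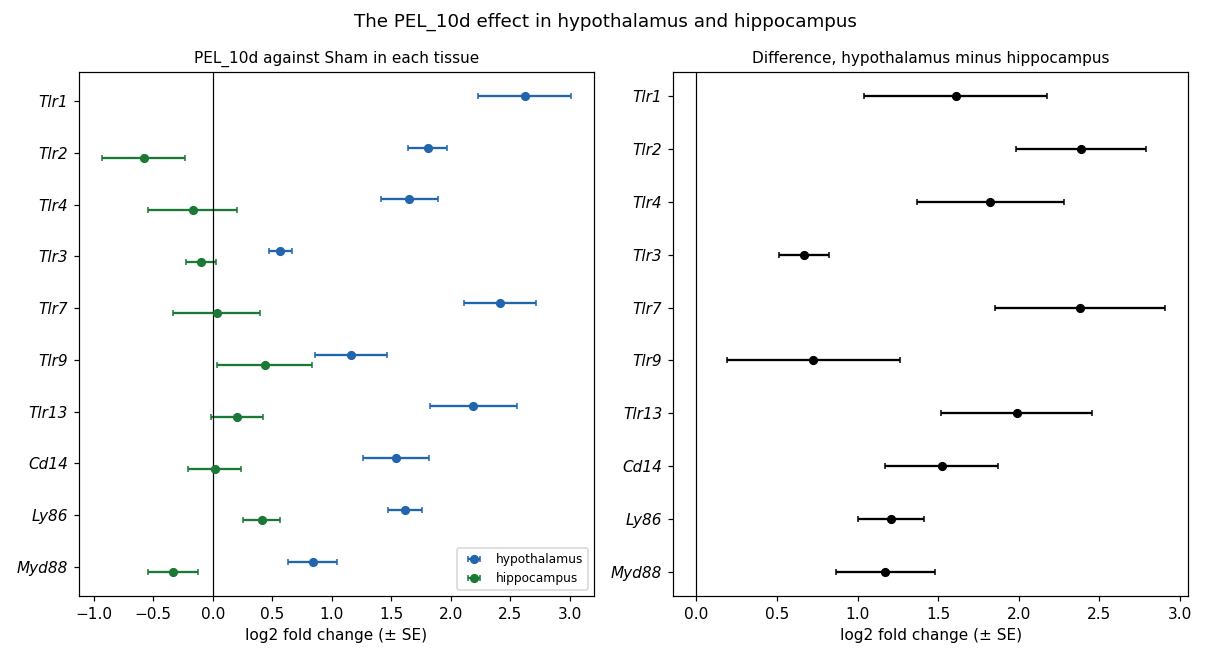
log2 fold change of PEL_10d against Sham with its standard error in hypothalamus and hippocampus (left) and the difference between the tissues (right), for each gene. The hypothalamic points lie between 0.57 and 2.62 and the hippocampal points between -0.58 and 0.44, and all differences are positive. Tlr1 was not tested in hippocampus alone.

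Tlr3 and Tlr9 apart, these genes rose and fell in the same order of groups as the microglia markers, though not in step with them, and in bulk tissue more cells of a type and more RNA per cell cannot be told apart. The markers, Cx3cr1 among them, rose in 10 of 10 at day 3 (median log2 fold change 2.08) and in 7 of 10 at day 10 (median 1.10). From day 3 to day 10 they fell in 10 of 10, by 0.61 to 2.06 on the log2 scale, whereas Tlr3 and Tlr9 did not pass. Their summed FPKM was 156 to 165 in Sham, 785 to 835 in PEL_3d and 335 to 369 in PEL_10d. As a share of that sum, Tlr3 went from 3.78% ± 0.76 (SD, n = 2) in Sham to 1.01% ± 0.23 (SD, n = 3) in PEL_3d and 2.20% ± 0.05 (SD, n = 3) in PEL_10d. Ly86 went the other way, from 3.98% ± 0.41 (SD, n = 2) to 7.47% ± 0.60 (SD, n = 3) and 5.64% ± 0.45 (SD, n = 3). Tlr13 went from 0.490% ± 0.049 (SD, n = 2) to 1.37% ± 0.34 (SD, n = 3) and stood at 1.03% ± 0.38 (SD, n = 3) in PEL_10d. Tlr9 went from 0.404% ± 0.031 (SD, n = 2) to 0.193% ± 0.030 (SD, n = 3), and in PEL_10d it was at the Sham share again, at 0.415% ± 0.107 (SD, n = 3). Tlr1 went from 0.117% ± 0.043 (SD, n = 2) to 0.402% ± 0.123 (SD, n = 3) and 0.326% ± 0.056 (SD, n = 3), and Myd88 from 1.58% ± 0.38 (SD, n = 2) down to 1.07% ± 0.07 (SD, n = 3) and 1.31% ± 0.19 (SD, n = 3). For Tlr2, Tlr4, Tlr7 and Cd14 the mean shares were 0.904%, 0.344%, 0.523% and 0.856% in Sham, 1.19%, 0.386%, 1.36% and 1.14% in PEL_3d, and 1.47%, 0.503%, 1.28% and 1.15% in PEL_10d. With counts scaled to library size in place of FPKM, the share of Tlr3 was 4.79% ± 0.02 (SD, n = 2), 1.41% ± 0.14 (SD, n = 3) and 3.24% ± 0.13 (SD, n = 3). These shares are a description with no test.

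**Figure D4:**
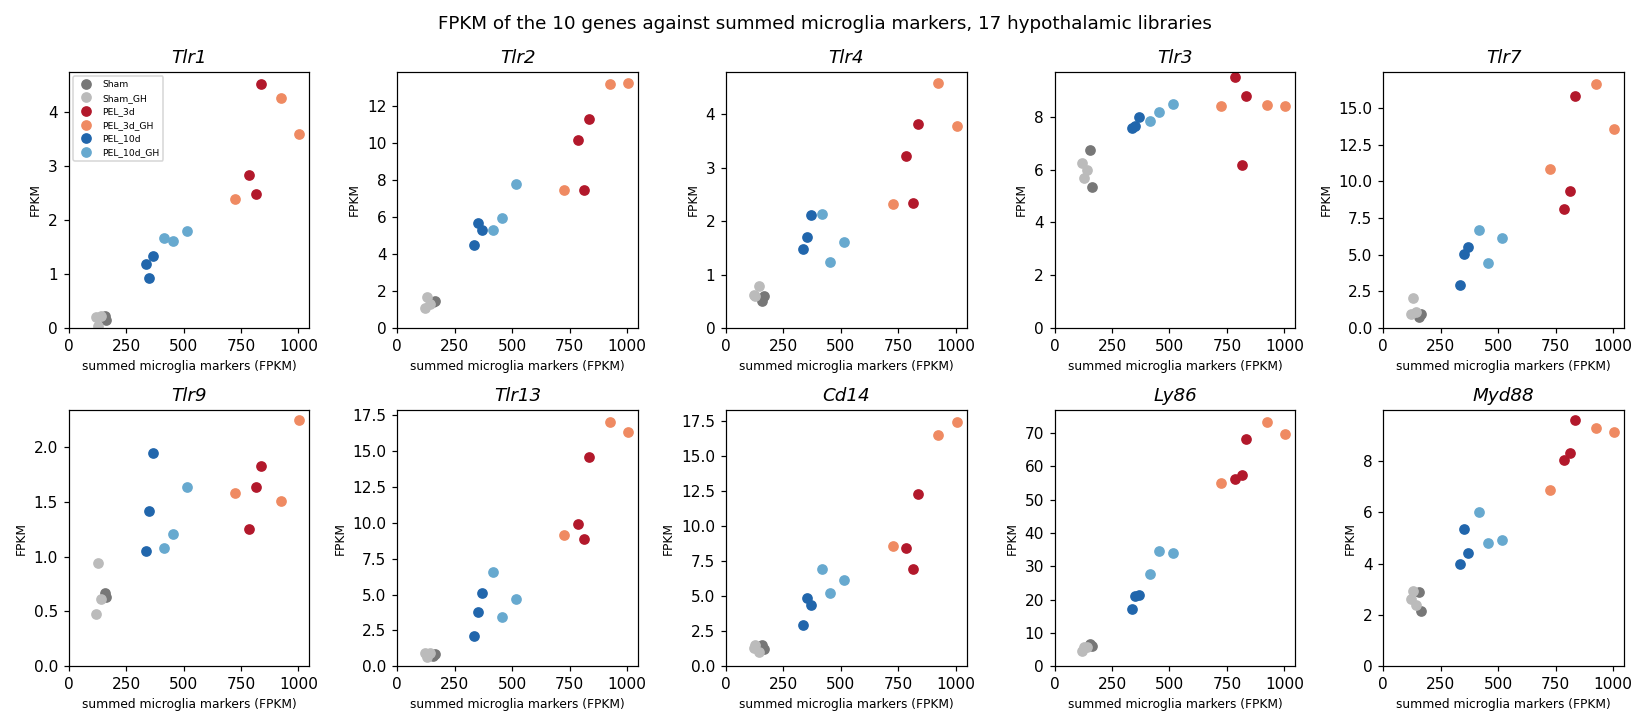
FPKM of each gene against the summed FPKM of 10 microglia markers in the 17 hypothalamic libraries without Sham 1, coloured by group, both axes linear from 0. Most genes climb with the marker sum, whereas the points of Tlr3 flatten above the PEL_10d libraries and those of Tlr9 scatter.

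Other cell markers moved in the same libraries, and their part was not tested either. Astrocyte markers summed to 570 to 594 FPKM in Sham, 1209 to 1372 in PEL_3d and 954 to 1049 in PEL_10d, with 4 of 6 higher and 2 lower at day 3 and 3 of 6 higher at day 10. Markers of neutrophils and monocytes summed to 1.91 to 4.88 FPKM in Sham, 7.91 to 26.4 in PEL_3d and 3.95 to 10.3 in PEL_10d. Of 4 tested, 3 had reached the count filter only through their PEL libraries at each day. Border macrophage markers summed to 3.57 to 4.20, 20.8 to 38.1 and 3.43 to 7.25 FPKM. Without those that reached the filter in 1 group only, 3 of 4 were higher at day 3 and 0 of 3 at day 10. Over all genes so counted the shares were 20.4% and 7.37%. Lymphocyte markers summed to 0.347 to 0.425 FPKM in Sham, 0.330 to 0.637 in PEL_3d and 1.14 to 1.32 in PEL_10d, where they did not overlap Sham. The 1 lymphocyte marker tested, Cd4, entered through its PEL libraries and passed at neither day. Endothelial markers summed to 91.0 to 92.3, 130 to 145 and 109 to 126 FPKM, with 3 of 5 higher at day 3 and 2 of 5 at day 10. Oligodendrocyte markers summed to 1664 to 2302, 1878 to 2000 and 2747 to 2909 FPKM, with 1 of 5 higher at day 3, near the 22.2% of all tested genes, and 2 of 5 at day 10, where that share was 7.97%. Neuron markers fell in 5 of 6 at day 3 and in 1 of 6 at day 10, where 18.2% and 1.43% of all tested genes passed as lower.

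The nearest genes by Pearson correlation of log2(normalized CPM + 1), over 17 hypothalamic libraries that share these 6 groups and among 15337 genes, were taken for each gene. Tlr3 ran closest to Aqp4 (r = 0.975), the astrocyte water channel, and Ddr1 (r = 0.968). Aqp4 was 1.28 higher on the log2 scale at day 3 and 1.32 higher at day 10, with 0.04 between the days. Ly86 ran close to Dock2 and Tlr7 to Cd53 (r = 0.994 each), and Tlr13 ran closest to Syk and Ms4a6d (r = 0.994 each). Tlr1 ran closest to Elf4 (r = 0.992) and Rasal3 (r = 0.990), Tlr2 to Runx1 and Cyth4 (r = 0.988 each), Tlr4 to Iqgap1 (r = 0.987) and Lamp2 (r = 0.986), Cd14 to Sh3bp2 (r = 0.989) and Ctsa (r = 0.988), and Myd88 to Cd72 and Mapkapk2 (r = 0.984 each). Tlr9 had the loosest neighbours, Acad12 (r = 0.925) and St3gal4 (r = 0.922). Among the 10 genes themselves r ran from 0.779 between Tlr3 and Myd88 to 0.990 between Tlr7 and Tlr13. The libraries share their group means, so these values are a description.

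The rest of the pathway was uneven. Genes that reached the count filter only through their PEL libraries are kept out of the counts of its lists. Over all genes that either group alone brought past the filter, 20.4% passed as higher and 19.2% as lower at day 3, and 7.37% and 1.49% at day 10. Over all tested genes the shares lower were 18.2% and 1.43%. Among the further receptors this left none to count, since all 4 tested had entered that way. Of these, Tlr8 stood at a log2 fold change of 4.53 (SE 0.52), Tlr6 at 2.59 (SE 0.42) and Tlr12 at 1.38 (SE 0.44) at day 3, where all 3 passed, and Tlr8 alone passed at day 10 (3.46, SE 0.80). Of 7 co-receptors and chaperones, 5 rose at day 3 and 3 at day 10. Cd180, the receptor that Ly86 accompanies, rose by 4.78 (SE 0.22) and 2.65 (SE 0.23), and Unc93b1, which carries the endosomal receptors to their compartment, by 2.77 (SE 0.18) and 2.20 (SE 0.18). Cd36 at 2.63 (SE 0.32) and Ly96, the partner of Tlr4 in binding lipopolysaccharide, at 2.26 (SE 0.47) passed at day 3, Ly96 only through its PEL libraries. The median of the 7 genes was 1.30 at day 3 and 1.37 at day 10.

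Of 17 adaptors and kinases, 6 rose and 1 fell at day 3, and 2 rose at day 10, with medians of 0.13 and 0.04. Ticam2, the bridging adaptor of Tlr4, passed at 4.25 (SE 0.30) and 3.09 (SE 0.41) but had entered through its PEL libraries, and Ikbke stood at 2.13 (SE 0.25) and 1.18 (SE 0.29). Of 9 transcription factors, 9 rose at day 3 and 7 at day 10 (medians 1.51 and 1.17), led by Irf8 at 3.41 (SE 0.16) and 2.48 (SE 0.19), a factor that myeloid cells also need to develop. Of 7 negative regulators, 2 rose and 2 fell at day 3, and 1 rose and 1 fell at day 10, so that at day 3 their shares lay near those of all genes. Irak3, a brake on the receptor complex, rose by 1.38 (SE 0.31) and 1.24 (SE 0.31), and Cyld, which removes ubiquitin chains, fell by 0.51 (SE 0.07) and by 0.27 (SE 0.07), all in log2 units.

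Of 14 target genes, 7 were tested at each day, and 5 of the 7 had reached the count filter only through their PEL libraries, so that they could hardly have fallen. The remaining 2, named here after their values were seen, were Ptgs2 at 1.79 (SE 0.42) and Nos2 at 1.52 (SE 0.40), and both rose at day 3, whereas neither passed at day 10, at 1.10 (SE 0.39) and 0.08 (SE 0.50). Ccl4 had 0 counts in both Sham libraries and 35 to 48 counts in PEL_3d, at least 13.3-fold higher against a floor of 3 counts per library, and 9 to 27 counts in PEL_10d, at least 6.16-fold higher. Ccl3 had 0 to 1 counts in Sham, 60 to 95 in PEL_3d and 27 to 35 in PEL_10d. Il1b, the cytokine interleukin-1β, had 1 to 3 counts in Sham and 13 to 36 in PEL_3d. Ccl2 stood at a log2 fold change of 4.76 (SE 0.60) at day 3 and did not pass at day 10, at 2.33 (SE 0.82). Ccl5 stood at 3.56 (SE 0.70) and Cxcl10 at 2.45 (SE 0.56) at day 10. Ccl2, Ccl5 and Cxcl10 too entered through their PEL libraries.

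Under growth hormone, over the genes that either group alone brought past the filter, 25.2% passed as higher and 26.5% as lower at day 3, and 16.8% and 13.9% at day 10. Over all tested genes the shares lower were 25.2% and 13.3%. Counted as above, 6 of 7 co-receptors and chaperones, 9 of 9 transcription factors and 10 of 18 adaptors and kinases were higher at day 3, with 1 of these adaptors and kinases lower. At day 10 the numbers higher were 4 of 7, 9 of 9 and 7 of 18. Negative regulators had 2 of 7 higher and 2 lower at day 3, near the shares of all genes, and 2 of 7 higher and 1 lower at day 10. A single target gene, Ptgs2, could be counted and did not pass at either day. Of the further receptors Tlr6 alone could be counted, and it was higher at both days, at 2.67 (SE 0.27) and 1.63 (SE 0.30). Cd180 stood at 5.75 (SE 0.28) and 3.64 (SE 0.19) and Irf8 at 3.92 (SE 0.19) and 3.10 (SE 0.17) at the 2 days. Microglia markers were higher in 10 of 10 at both days, with medians of 2.29 and 1.74. The neutrophil markers S100a9 at 3.03 (SE 0.49) and S100a8 at 2.56 (SE 0.51) passed at day 10 but had entered through their PEL libraries. The part of these markers in the lesion effect was not tested. Of the anterior pituitary markers, Prl stood at 4.88 (SE 1.40) and Gh at 3.43 (SE 0.80) in PEL_10d_GH against Sham_GH, and neither reached the count filter through Sham_GH alone.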

How the data were processed

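For 22274 genes in 24 libraries, the deposited table holds estimated counts beside FPKM, made per the authors' methods with Hisat2 and featureCounts. The processing notes name GRCm38 and mm10, and the settings for strand and for reads with several hits are not given in the sources used here. Of the estimated counts 8.22% were not whole, so they were rounded. The authors scaled FPKM to gene length and depth, and it was used as deposited. For 8 of the 10 genes it followed the counts within 1.10-fold across the hypothalamic libraries, and for Tlr3 and Tlr7 it did not (up to 1.47-fold and 2.31-fold), so all folds come from counts. A symbol was matched for 22219 identifiers, and gene positions are those of GENCODE vM21. Counts were tested with edgeR 4.0.16 in R 4.3.3 (TMM, filterByExpr with a minimum count of 10, quasi-likelihood test, Benjamini-Hochberg threshold 0.05 over all tested genes), with only the compared groups in each fit, 14 comparisons in all. SE is the log2 fold change over the root of F. In counts simulated with a fixed spread for every gene, the test recovered most of the larger changes put in. That spread was not taken from these libraries, so this does not show the power of the real tests. Replicates differed beyond sampling noise in all 24 pairs (chi-square per degree of freedom at least 3.19). Floors cover counting error only.

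Alternatives were DESeq2 1.42.0, DESeq2's size factors, no filter, a mean count of at least 50, limma 3.58.1 on log2(FPKM + 0.1) and log2(FPKM + 1), one fit per tissue, a replicate block, the library labelled Sham 1, and each library left out. Counts without genes that reached the filter in 1 group only, and levels from counts scaled to library size, were added after the data were seen. By rule any of the 10 genes could be named in each comparison. From other lists up to 4 genes that passed with the largest fold changes are named, and 2 nearest genes by correlation. Some genes of these rules are not reported here. The genes and the lists were chosen with earlier results of these data known. Replicate numbers did not pair the libraries. A library titled hippocampal Sham 3 carries another tissue in 1 label field and was kept by its title, and its markers were those of hippocampus.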

Additional observations from a re-analysis of the deposited data

Results flagged for a closer look

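In the main test the PEL_10d effect differed between hypothalamus and hippocampus for 2 genes, by a test of the difference itself. For Tlr2 the difference was 2.389 on the log2 scale (SE 0.40, adjusted p = 0.0281, quasi-likelihood test of edgeR, adjusted by Benjamini-Hochberg), with an effect of 1.81 in hypothalamus and -0.58 in hippocampus, where it was -0.27 (SE 0.33) without the library labelled hippocampus Sham 1. For Ly86 it was 1.207 (SE 0.20, adjusted p = 0.0281, edgeR), with 1.62 and 0.41. Without the library labelled hippocampus Sham 1 the differences were 2.05 and 1.05, and both passed, among 8 genes of the list that then did. DESeq2 also called 8, so the difference is not particular to these 2 genes. Over 18 alternatives the call was lost in 6 for Tlr2 and in 8 for Ly86, with adjusted p up to 0.182 and 0.186 (edgeR). Both were lost without hypothalamic Sham 2, Sham 3, PEL_10d 1 or PEL_10d 3 and without hippocampal PEL_10d 2 or PEL_10d 3. That of Ly86 was also lost without hippocampal Sham 3 (adjusted p = 0.0539, edgeR) and with the hypothalamic library labelled Sham 1 (adjusted p = 0.0589, edgeR).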

How the results depend on the processing

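Over 193 recomputed counts of genes that passed, 171 stayed on their side within 1.5 times, which includes comparisons where no gene passed in either fit. Over 1043 recomputed gene values 942 kept their call, 76 lost it, 25 gained it and 0 changed direction. These values cover only genes called in a comparison by the main test or an alternative, so a change of direction was unlikely from the start. With the library labelled Sham 1, PEL_10d against Sham gave 6 genes and the tissue difference 1. DESeq2 gave 1 gene for PEL_10d_GH against PEL_10d, 1 for the day 10 difference with and without growth hormone, and 8 for the tissue difference, for which the fit over all groups of each tissue gave 7. With 1 library left out, PEL_10d against Sham gave 3 to 10 genes, PEL_10d_GH against PEL_3d_GH 3 to 8, and the tissue difference 0 to 8. A lone Sham library is then assumed to vary like the other group. Fewer samples were fitted there, and the cause of the other changes was not tested.

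Replicate numbers were checked as pairs over 28 pairs of groups, and in 0 of them did every number correlate above 0.1 (r from -0.48 to 0.397). With the replicate block, PEL_10d_GH against PEL_3d_GH gave 6 genes, PEL_3d against Sham 10 and the tissue difference 2. The one fit per tissue was not available for the hippocampal comparison, which holds its only groups. Depth limits Tlr1 most, with Sham counts of 6 to 10, and then Cd14, Tlr4 and Tlr9, whose Sham counts lay between 31 and 38.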
